A study of Mus musculus with 18 samples.

Results

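The 40 genes described here encode proteins that build and run the mitotic spindle, the kinetochore and the condensed chromosome. They were found by symbol in the deposited expression table, and all 40 were present among its 18264 genes. By role, 8 are kinases, phosphatases or regulators of mitotic entry, 4 form the chromosomal passenger complex, 7 belong to the centromere and kinetochore, and 3 to the spindle checkpoint. A further 4 act in the anaphase promoting complex and chromatid separation, 8 in spindle assembly and microtubule binding, 3 in cytokinesis and 3 in chromosome structure. The set leaves out the kinesin genes by name, although Cenpe, kept here as a kinetochore gene, encodes a kinesin motor.

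RNA sequencing covered mouse neonatal ventricular cardiac fibroblasts (NVCFs), cells of the newborn heart that secrete matrix, in 18 libraries and 6 groups of 3. The knockdown arm comprised a control siRNA (si-NC), an siRNA against Foxm1 (si-Foxm1), angiotensin II (Ang-II, a pressor peptide hormone) and both agents in combination (si-Foxm1+Ang-II). Cells overexpressing Foxm1 (OE-Foxm1) and their own control (OE-NC) made up the overexpression arm. Strain, pup age, hormone dose, exposure time, the overexpression vector, and whether Ang-II cells also received a control siRNA are not stated in the sample labels. Without a control siRNA in them, comparisons with the Ang-II group, and the interaction, would also differ in siRNA transfection, which could not be told apart. The labels do not say that the libraries of a group came from separate cultures, so p-values measure the spread between these libraries, which may be technical.

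As background, the genes of this set are switched on late in the cell cycle, when a cell prepares to divide. Cdk1 with cyclin B drives entry into mitosis, Plk1 and the Aurora kinases build the spindle, and the Ndc80 complex ties microtubules to centromeres marked by Cenpa. The checkpoint kinases Bub1 and Ttk with Bub1b hold back the anaphase promoting complex until every chromosome is attached, and Cdc20 and Ube2c then drive the destruction of securin (Pttg1), which frees separase (Espl1) to part the chromatids. Foxm1 is a forkhead transcription factor known to activate many such genes together with the MuvB complex and B-Myb. Their promoters often carry a cell cycle homology region, written TTTGAA or TTCGAA, which MuvB complexes bind, and CCAAT boxes bound by NF-Y.

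Promoter sequences are shown for 5 members because they stand for the different patterns below: Prc1 and Top2a were among the genes that rose with the siRNA under Ang-II, Cenpf and Ckap2 did not rise there, and Pttg1 was the member that Ang-II did not lower. Each is 170 bases before and 30 after the annotated start, 5′ to 3′ on the gene's strand, from RefSeq on GRCm38.p6. Capitals mark cell cycle homology region strings, CCAAT boxes and the forkhead core string TAAACA, on either strand. Prc1 lies at chr7:80294281-80294480 (plus strand), Top2a at chr11:99024160-99024359 (minus), Cenpf at chr1:189688057-189688256 (minus), Ckap2 at chr8:22185790-22185989 (minus) and Pttg1 at chr11:43425952-43426151 (minus).
Prc1: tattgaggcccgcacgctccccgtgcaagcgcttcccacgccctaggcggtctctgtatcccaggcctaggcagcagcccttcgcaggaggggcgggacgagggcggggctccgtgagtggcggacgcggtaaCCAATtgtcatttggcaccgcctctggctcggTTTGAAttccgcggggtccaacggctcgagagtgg
Top2a: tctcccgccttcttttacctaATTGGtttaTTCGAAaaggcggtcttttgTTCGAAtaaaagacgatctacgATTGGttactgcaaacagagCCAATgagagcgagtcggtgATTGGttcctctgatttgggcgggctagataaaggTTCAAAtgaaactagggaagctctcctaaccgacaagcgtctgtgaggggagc
Cenpf: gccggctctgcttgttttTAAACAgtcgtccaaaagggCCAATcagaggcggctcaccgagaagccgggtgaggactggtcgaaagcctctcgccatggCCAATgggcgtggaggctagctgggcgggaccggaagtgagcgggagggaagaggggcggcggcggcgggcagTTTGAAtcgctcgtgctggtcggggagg
Ckap2: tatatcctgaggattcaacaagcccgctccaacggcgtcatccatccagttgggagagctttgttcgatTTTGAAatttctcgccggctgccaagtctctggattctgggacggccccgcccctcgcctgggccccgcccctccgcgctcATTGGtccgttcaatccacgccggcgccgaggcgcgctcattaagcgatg
Pttg1: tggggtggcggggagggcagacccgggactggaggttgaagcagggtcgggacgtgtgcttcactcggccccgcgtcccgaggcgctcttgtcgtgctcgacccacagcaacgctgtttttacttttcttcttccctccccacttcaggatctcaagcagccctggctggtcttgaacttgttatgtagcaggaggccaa

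The Top2a window held 3 TTTGAA or TTCGAA matches and 4 CCAAT matches, Prc1 and Ckap2 held 1 of each, Cenpf held 1 and 2 with 1 TAAACA, and Pttg1 held none of them. Over the full 300-base windows (250 before, 50 after the start), 33 of the 40 members had an entry; Cdc25c, Aurkb, Incenp, Spc24, Tpx2, Dlgap5 and Cdca2 had none. TTTGAA or TTCGAA, searched on both strands, occurred in 26 of the 33 (78.8%) and in 21.7% of the 27025 genes in the table. CCAAT also occurred in 26 (78.8%, against 41.1%), and 24 members had both in 1 promoter (72.7%, against 8.61%). TAAACA occurred in 5, namely Aspm, Cdca3, Cenpf, Ect2 and Nuf2, which is 15.2% against 15.1% of all genes. Birc5, Melk, Nusap1 and Pttg1 had none of the motifs in this window. A match is a string of letters and says nothing about binding in these cells.

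Library totals, recovered from the deposited FPKM (fragments per kilobase of gene, corrected for library size), ran from 14988993 to 19343343 counts, and a member's count in a library from 30 (Cdc25c) to 4560 (Mki67). The library Ang-II 3 stood apart from its group: its mean chi-square per gene against the other Ang-II libraries was 5.03 and 5.46, and 1.69 to 2.88 for every other pair within a group. It was the highest Ang-II library for 37 of the 40 members, so counts of called members in comparisons that use it are also given without it. The share of all genes for which it was highest was not computed. Counts of overlap, order, markers and other gene lists include Ang-II 3. All 12 fibroblast markers had a mean of at least 1 FPKM over the libraries, but so did all 18 cardiomyocyte markers, none of them at 0. The most abundant cardiomyocyte marker, troponin T (Tnnt2), averaged 1933 FPKM, above the most abundant fibroblast marker, periostin (Postn), at 1032. In bulk RNA, fewer cells of a type and less RNA per cell cannot be told apart, which holds for dividing cells too.

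Foxm1 mRNA followed the labels in every library. It was 10.4, 9.64 and 10.3 FPKM in si-NC and 6.06, 5.13 and 6.71 in si-Foxm1, a ratio of means of 0.590. It was 4.23, 4.03 and 5.65 in Ang-II and 3.55, 3.36 and 3.03 in si-Foxm1+Ang-II, a ratio of 0.715. It was 15.7, 17.1 and 17.1 in OE-NC and 399, 480 and 487 in OE-Foxm1, a ratio of 27.4. No library of one group overlapped the other in any of these pairs, nor between Ang-II and si-NC, where the ratio was 0.459. Each two-sided exact permutation test gave p = 0.1, the smallest that 3 libraries against 3 allow. The Ang-II and si-Foxm1 libraries overlapped, and the libraries with both treatments were the lowest.

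The summed level of the 40 mitosis genes was lower with Ang-II, as Foxm1 was, but higher with the Foxm1 siRNA. It was 417, 384 and 408 FPKM in si-NC and 482, 482 and 539 in si-Foxm1, so every library with the siRNA lay above every control library. It was 171, 152 and 195 in Ang-II and 288, 277 and 280 in si-Foxm1+Ang-II, again without overlap. The mean sum was thus 1.24 times as high with the siRNA alone, 0.429 times as high with Ang-II alone, and 1.63 times as high in si-Foxm1+Ang-II as in Ang-II. In the overexpression arm the sum was 696, 684 and 708 FPKM in OE-NC and 623, 626 and 708 in OE-Foxm1, which overlap; the ratio of means was 0.937 while Foxm1 itself rose 27.4-fold. The sum is a description that the most abundant members (Ube2c, Cenpa and Top2a) weigh on most.

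**Figure D1:**
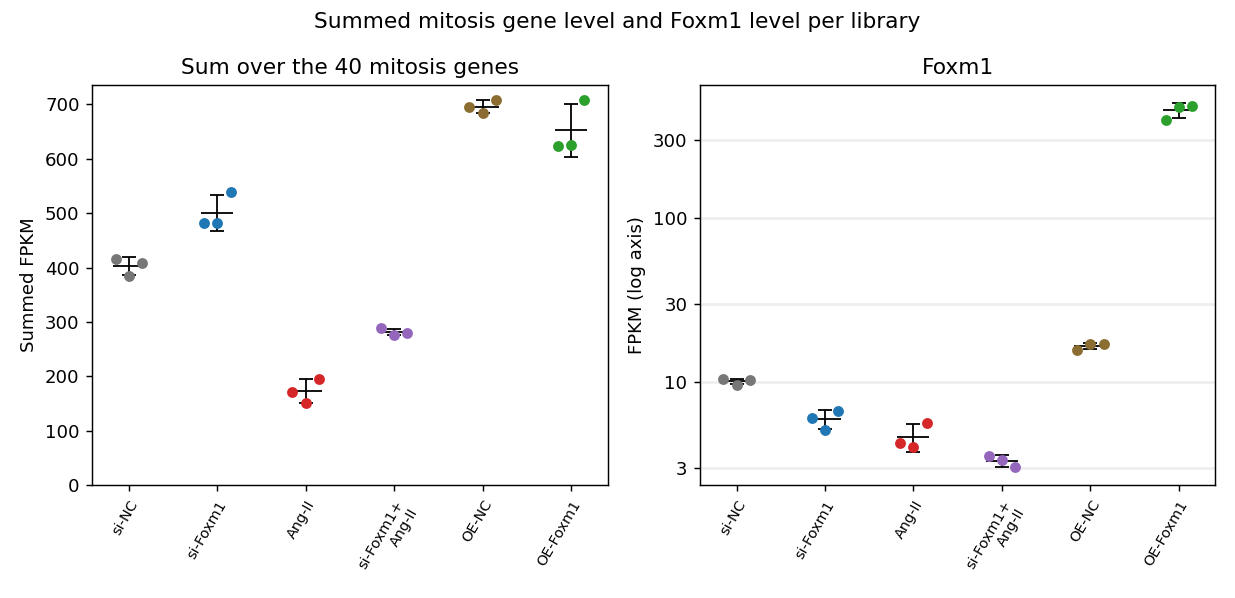
Left, summed FPKM of the 40 mitosis genes in each library (points) by group, with the group mean and SD (bars, n = 3); right, Foxm1 FPKM on a log axis in the same libraries. Si-Foxm1 libraries lie at 482 to 539 summed FPKM above si-NC at 384 to 417 although Foxm1 is lower in them, Ang-II libraries lie lowest at 152 to 195, and OE-Foxm1 overlaps OE-NC although Foxm1 is 27.4 times as high.

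Angiotensin II lowered nearly the whole set. Against si-NC, 39 of the 40 genes were lower and 0 higher at a limma adjusted p under 0.05 (also 0 higher at an unadjusted p under 0.05 and with voom on recovered counts), where 29.2% of the 11180 genes tested were lower and 15.2% higher. The median log2 fold change was -1.06 for the 40 genes and -0.03 for all genes tested, on a log2(FPKM + 1) scale that understates the change of low genes. All members of 7 of the 8 roles fell, and Pttg1 was the exception in the remaining role. The same 39 genes were called without Ang-II 3 and under every other alternative tried.

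On the log2(FPKM + 1) scale the largest falls were in Prc1, Nuf2 and Ube2c; by the ratio of mean FPKM, which has no pseudocount, they were in the kinase Melk (0.309), Nuf2 (0.343) and Prc1 (0.352), with Ube2c at 0.394. Prc1, which bundles the microtubules of the central spindle, was 20.3, 18.8 and 19.2 FPKM in si-NC and 6.91, 5.58 and 7.98 in Ang-II, a log2 fold change of -1.39 ± 0.09 (SE; limma adjusted p = 6.4e-08). Nuf2, a subunit of the Ndc80 complex, was 9.496, 8.63 and 8.40 FPKM and then 2.88, 2.43 and 3.79 (-1.30 ± 0.09, limma adjusted p = 1.29e-07). Ube2c, the ubiquitin-conjugating enzyme of the anaphase promoting complex, was 35.4, 30.7 and 35.5 FPKM and then 12.1, 12.7 and 15.3 (-1.29 ± 0.08, limma adjusted p = 4.39e-08). In each, the highest Ang-II library stayed below every control library. The chromosomal passenger complex, which corrects wrong attachments and guides cytokinesis, fell as a block, with its 4 members between -1.24 and -1.06; Birc5 (survivin) went from 17.998, 16.5 and 19.5 FPKM to 7.30, 5.64 and 8.49. The smallest falls on the log2 scale that passed the test were in Cdca2, a phosphatase adaptor of chromatin (-0.56 ± 0.07), and in the phosphatase Cdc25c (-0.60 ± 0.10), both low-abundance genes at 1.66 ± 0.08 and 2.33 ± 0.36 FPKM (SD, n = 3) in si-NC; their ratios of mean FPKM were 0.489 and 0.518. By that ratio the smallest called fall was in the centromere histone Cenpa, from 22.2, 21.3 and 21.9 FPKM to 14.2, 11.0 and 13.6, a ratio of 0.596.

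Pttg1, the securin that holds separase inactive, was the member that Ang-II did not lower at this threshold. It was 8.95, 8.42 and 9.33 FPKM in si-NC and 7.78, 8.19 and 8.81 in Ang-II, and the groups overlapped. The log2 difference was -0.10 with a 95% interval from -0.26 to 0.06 (limma adjusted p = 0.317). Separase itself, Espl1, fell by 0.80 on the log2 scale, so the ratio of Pttg1 to Espl1 went from 3.66 ± 0.19 in si-NC to 8.74 ± 2.02 in Ang-II (SD, n = 3), with no overlap (3.43 to 3.80 against 7.51 to 11.1).

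The Foxm1 siRNA without hormone was followed by higher levels of most of the set. Against si-NC, 30 of the 40 genes were higher and 1 lower by limma, where 48.5% of all genes tested were higher and 17.2% lower. The median log2 fold change was 0.32 for the 40 genes and 0.11 for all genes tested, a difference of 0.21. With median-of-ratios scaling, which moves the median of all genes to near 0, 19 of the 40 were higher and 3 lower (Cenpf, Aspm and Cdc25b), and with quantile normalization 22 and 3. The higher share of called members was then 86.4% and 88.0%, in place of 96.8%, while over all genes tested it was 47.4% and 53.6%, in place of 73.8%. All 4 chromosomal passenger genes, all 3 checkpoint genes and all 3 chromosome structure genes were higher, and stayed so under both scalings. The other roles had fewer calls once rescaled. Of the 8 mitotic entry genes 6 were higher, but 2 with median-of-ratios scaling and 3 with quantile normalization, each with 1 lower. Of the 7 centromere and kinetochore genes 6 were higher, and then 3 and 4. Anaphase genes went from 3 of 4 to 2 under both. Spindle assembly went from 4 of 8 to 2 and 3, each with 1 lower, and cytokinesis from 1 of 3 to 0 under both (by limma).

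Bub1b, a checkpoint protein that binds and holds Cdc20, rose most. It was 6.92, 7.12 and 7.07 FPKM in si-NC and 10.8, 11.5 and 11.98 in si-Foxm1 (log2 fold change 0.63 ± 0.07, limma adjusted p = 5.87e-06). Top2a, the topoisomerase that untangles sister chromatids, was 24.6, 22.2 and 23.2 FPKM and then 31.7, 32.7 and 36.7 (0.51 ± 0.08, limma adjusted p = 0.000123). Ttk, the kinase that starts checkpoint signalling, was 3.05, 2.55 and 3.25 FPKM and then 4.31, 4.24 and 4.75 (0.46 ± 0.09, limma adjusted p = 0.000338). None of the 3 genes overlapped between the groups. Birc5 rose to 24.6, 23.0 and 27.4 FPKM (0.45 ± 0.10) and Cenpa to 27.7, 25.9 and 28.8 (0.32 ± 0.08). Plk1, the kinase of spindle assembly, was 13.2, 12.7 and 12.6 FPKM in si-NC and 14.7, 15.3 and 17.5 in si-Foxm1 (0.28 ± 0.10, limma adjusted p = 0.026). That call was lost with median-of-ratios scaling (0.16, limma adjusted p = 0.19) and without si-NC 2, si-NC 3 or si-Foxm1 3, over a range of 0.00132 to 0.19 across the alternatives. The calls for Tpx2, an activator of Aurora A (0.26 ± 0.07), and Racgap1, a subunit of centralspindlin (0.22 ± 0.05), were lost under both scalings, with limma adjusted p up to 0.108 and 0.103.

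Under Ang-II the rise with the siRNA covered 35 of the 40 genes. If the Ang-II group had no control siRNA, the Foxm1 siRNA cannot be told apart from siRNA transfection here. In si-Foxm1+Ang-II against Ang-II, 35 were higher and 0 lower by limma (0 lower also at an unadjusted p under 0.05 and with voom), where 44.0% of all genes tested were higher and 17.4% lower. The median log2 fold change was 0.59 for the 40 genes and 0.09 for all genes. All 30 genes that rose without the hormone rose here too, and Ube2c, Ect2, Hmmr, Anln and Dlgap5 were called here in addition. Of these, Anln, Ect2 and Hmmr lay just above the threshold without hormone (limma adjusted p = 0.0654, 0.0715 and 0.0815), and voom called them higher there too. Under Ang-II the same 35 genes were called without Ang-II 3. With either scaling 32 were higher and 0 lower, while the higher share of all called genes moved from 71.7% to 49.7% with median-of-ratios scaling and 53.5% with quantile normalization. The comparison shares no library with si-Foxm1 against si-NC, and across the 40 genes the 2 sets of log2 fold changes had a Pearson r of 0.81 and a Spearman rho of 0.73, a description in which low genes are shrunk alike by the pseudocount.

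On the log2(FPKM + 1) scale Top2a showed the largest rise under the hormone; by the ratio of mean FPKM (2.003) it came after Melk (2.27), Ttk (2.07) and Spc24, a subunit of the Ndc80 complex (2.04). Top2a went from 8.95, 8.14 and 11.2 FPKM in Ang-II to 19.5, 18.4 and 18.7 in si-Foxm1+Ang-II (0.94 ± 0.08, limma adjusted p = 5.51e-07). Prc1 followed on the log2 scale, from 6.91, 5.58 and 7.98 to 14.3, 12.9 and 13.3 FPKM (0.90 ± 0.09, limma adjusted p = 1.84e-06). Cdca8 (borealin, of the passenger complex) went from 5.34, 4.69 and 5.18 to 9.35, 10.1 and 9.78 FPKM (0.82 ± 0.05, limma adjusted p = 1.33e-08). In all 3, every library with the siRNA was above every Ang-II library, as was the case for 33 of the 40 genes. Bub1b reached 6.76, 5.92 and 5.98 FPKM from 3.34, 2.70 and 3.63, Birc5 reached 13.1, 12.7 and 12.4, and Plk1 reached 9.78, 9.49 and 9.41 from 5.43, 4.34 and 6.86. The mean of the combined group lay between Ang-II and si-NC for 37 genes, and every combined library lay below every si-NC library for 39, Pttg1 being the exception. For these counts, and for the 33 genes without overlap above, the shares of all genes tested were not computed.

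Read the other way, Ang-II also lowered the set in cells given the siRNA. In si-Foxm1+Ang-II against si-Foxm1, 40 of 40 genes were lower and 0 higher by limma (0 higher also at an unadjusted p under 0.05 and with voom), where 34.6% of all genes tested were lower and 12.9% higher. The median log2 fold change was -0.76 for the 40 genes and -0.07 for all genes. On the log2 scale the largest falls were in Ckap2, a microtubule-associated protein (-1.14 ± 0.08), the proliferation marker Mki67, which coats mitotic chromosomes (-0.98 ± 0.08), and Nuf2 (-0.95 ± 0.09); by the ratio of mean FPKM they were in Ckap2 (0.393), Cenpf (0.447) and Cdc25b (0.470). The smallest were in Pttg1 (-0.19 ± 0.07), Ect2, the exchange factor that starts the cleavage furrow (-0.50 ± 0.06), and Cenpa (-0.55 ± 0.08). The Pttg1 groups overlapped (10.9 to 11.7 FPKM in si-Foxm1, 8.54 to 11.3 in the combination), and its limma adjusted p of 0.0497 ranged from 0.005 to 0.254 over the alternatives and passed the threshold in 3 of 15.

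**Figure D2:**
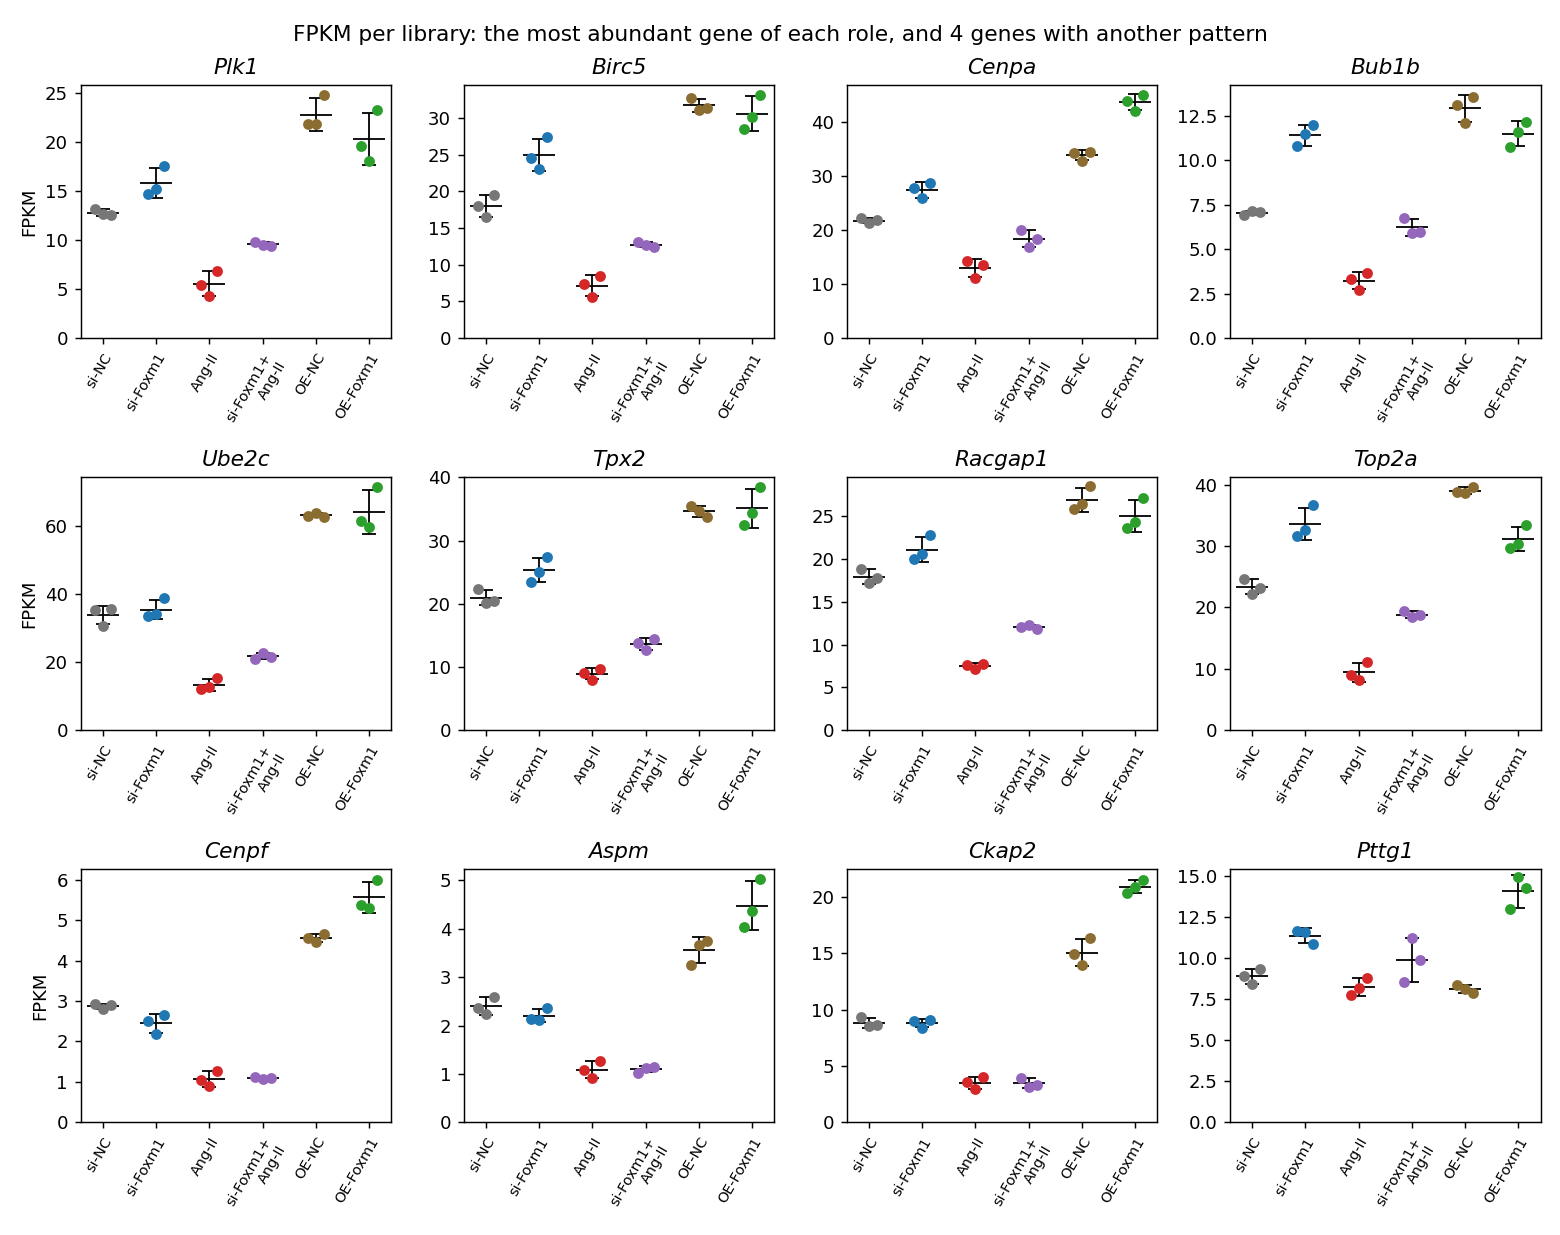
FPKM in each library (points) by group, with group mean and SD (bars, n = 3), for the most abundant gene of each of the 8 roles and for Cenpf, Aspm, Ckap2 and Pttg1; every vertical axis starts at 0. Top2a and Bub1b rise from si-NC to si-Foxm1 and from Ang-II to si-Foxm1+Ang-II, Cenpf, Aspm and Ckap2 stay level between Ang-II and si-Foxm1+Ang-II, and Pttg1 libraries of si-NC and Ang-II overlap.

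A minority of the set was not called higher with the siRNA in either setting: Cdc25b, Nek2, Cenpf, Aspm and Ckap2. Cenpf, a large protein of the outer kinetochore, was 2.92, 2.80 and 2.91 FPKM in si-NC and 2.50, 2.196 and 2.66 in si-Foxm1, with no overlap, and was the 1 member called lower (-0.17 ± 0.07, limma adjusted p = 0.0401). That call was lost in 7 of 15 alternatives (limma adjusted p 0.00173 to 0.177), among them leaving out any si-NC library, si-Foxm1 1 or si-Foxm1 2. Under Ang-II, Cenpf was 1.04, 0.898 and 1.28 FPKM and with the siRNA 1.11, 1.08 and 1.10, and the log2 difference had a 95% interval from -0.13 to 0.17. Ckap2 had a mean of 8.82 FPKM in both si-NC and si-Foxm1 (95% interval of the log2 difference -0.17 to 0.18), with 3.48 ± 0.52 FPKM in Ang-II and 3.46 ± 0.43 in si-Foxm1+Ang-II (SD, n = 3; interval -0.18 to 0.17). Aspm, a spindle pole protein, was 2.40 ± 0.18 and 2.199 ± 0.14 FPKM without hormone and 1.09 ± 0.18 and 1.10 ± 0.07 with it. Without hormone, Aspm was called lower with the siRNA under both scalings. The intervals for Cenpf and Ckap2 lay below the median of the set under Ang-II, 0.59, on a scale that shrinks low genes such as Cenpf more; the ratios of mean FPKM there were 1.02 for Cenpf and 0.995 for Ckap2. With Ang-II alone all 5 genes fell, Ckap2 by 1.14, Cenpf by 0.91 and Aspm by 0.71 on the log2 scale.

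The mitotic entry genes split in the same way. Cdc25b, a phosphatase that activates Cdk1, was 5.06, 3.81 and 4.83 FPKM in si-NC and 4.09, 3.24 and 4.57 in si-Foxm1 (-0.17 ± 0.11, limma adjusted p = 0.179), and with median-of-ratios scaling it was called lower (-0.27, limma adjusted p = 0.0423; range over the alternatives 0.0298 to 0.646). Nek2, a kinase of centrosome separation, was 4.41, 3.87 and 4.06 FPKM and then 3.82, 3.37 and 4.10 (-0.10 ± 0.10, limma adjusted p = 0.353). Both genes overlapped between the groups. Cdc25c, the related phosphatase, was 2.66, 2.39 and 1.95 FPKM and then 2.97, 2.68 and 3.17 (0.25 ± 0.10, limma adjusted p = 0.042), so its groups only just separated, and the call was lost under both scalings, with a pseudocount of 0.1, without the filter, and without si-NC 2, si-NC 3, si-Foxm1 1 or si-Foxm1 3 (limma adjusted p 0.0197 to 0.217 over the alternatives). Dlgap5, a microtubule-binding spindle protein, was 7.20 ± 0.31 and 6.89 ± 0.77 FPKM without hormone and was called higher under it (0.23 ± 0.08, limma adjusted p = 0.028); it lost that call under both scalings and without Ang-II 1, Ang-II 2, si-Foxm1+Ang-II 2 or si-Foxm1+Ang-II 3.

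The order of the 4 group means in the knockdown arm was the same for 33 members: si-Foxm1, then si-NC, then si-Foxm1+Ang-II, then Ang-II. For Nek2, Cenpf, Aspm and Dlgap5, si-NC came before si-Foxm1, although the libraries of Nek2, Aspm and Dlgap5 overlapped between these groups. For Cdc25b and Ckap2 the last pair was also turned, again with overlapping libraries. Pttg1 had an order of its own, with si-Foxm1+Ang-II above si-NC. Within groups, replicate 3 was the highest si-Foxm1 library for 37 members and the highest OE-Foxm1 library for 38, so members shared the differences between libraries and are not independent of each other. For the counts of order and of replicate 3, the shares of all genes tested were not computed.

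Markers of other cells moved with the same comparisons. The summed level of the 18 cardiomyocyte markers was 14101 to 15181 FPKM in si-NC, 7579 to 8061 in si-Foxm1, 10454 to 11441 in Ang-II and 5785 to 5984 in si-Foxm1+Ang-II. With the siRNA alone, 16 of the 18 were lower and 1 higher, and with Ang-II alone 17 were lower and 1 higher. The 11 macrophage and leukocyte markers summed to 265 to 273 FPKM in si-NC, 134 to 168 in si-Foxm1, 323 to 352 in Ang-II and 134 to 154 in si-Foxm1+Ang-II, and all 9 that were tested fell with the siRNA in both settings. Cardiomyocyte and macrophage markers were thus lower where the mitosis genes were higher with the siRNA, while with Ang-II cardiomyocyte markers and mitosis genes were both lower. Endothelial markers moved the same way as the mitosis genes in the knockdown arm, at 189 to 191 FPKM in si-NC, 221 to 229 in si-Foxm1, 159 to 162 in Ang-II and 187 to 199.8 in si-Foxm1+Ang-II. Of the 8 tested, 5 were higher and 0 lower with the siRNA alone (3 and 1 with median-of-ratios scaling, 4 and 1 with quantile normalization), and 6 were lower with Ang-II alone. In si-Foxm1+Ang-II against Ang-II, 5 endothelial markers rose and 1 fell. Pericyte and smooth muscle markers summed to 207 to 222 FPKM in si-NC, 164 to 179.7 in si-Foxm1, 255 to 282 in Ang-II and 220.5 to 229 in si-Foxm1+Ang-II, and 6 of the 7 tested were lower with the siRNA in each setting. The 12 fibroblast markers summed to 3460 to 3636 FPKM in si-NC, 3274 to 3458 in si-Foxm1, 4307 to 4557 in Ang-II and 4196 to 4338 in si-Foxm1+Ang-II, although with Ang-II alone 3 were higher and 7 lower. Epicardial markers summed to 79.4 to 85.6 FPKM in si-NC and 89.2 to 92.1 in si-Foxm1, and to 76.2 to 83.3 in Ang-II and 77.4 to 84.4 in the combination. The part of these markers in the results was not tested.

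**Figure D3:**
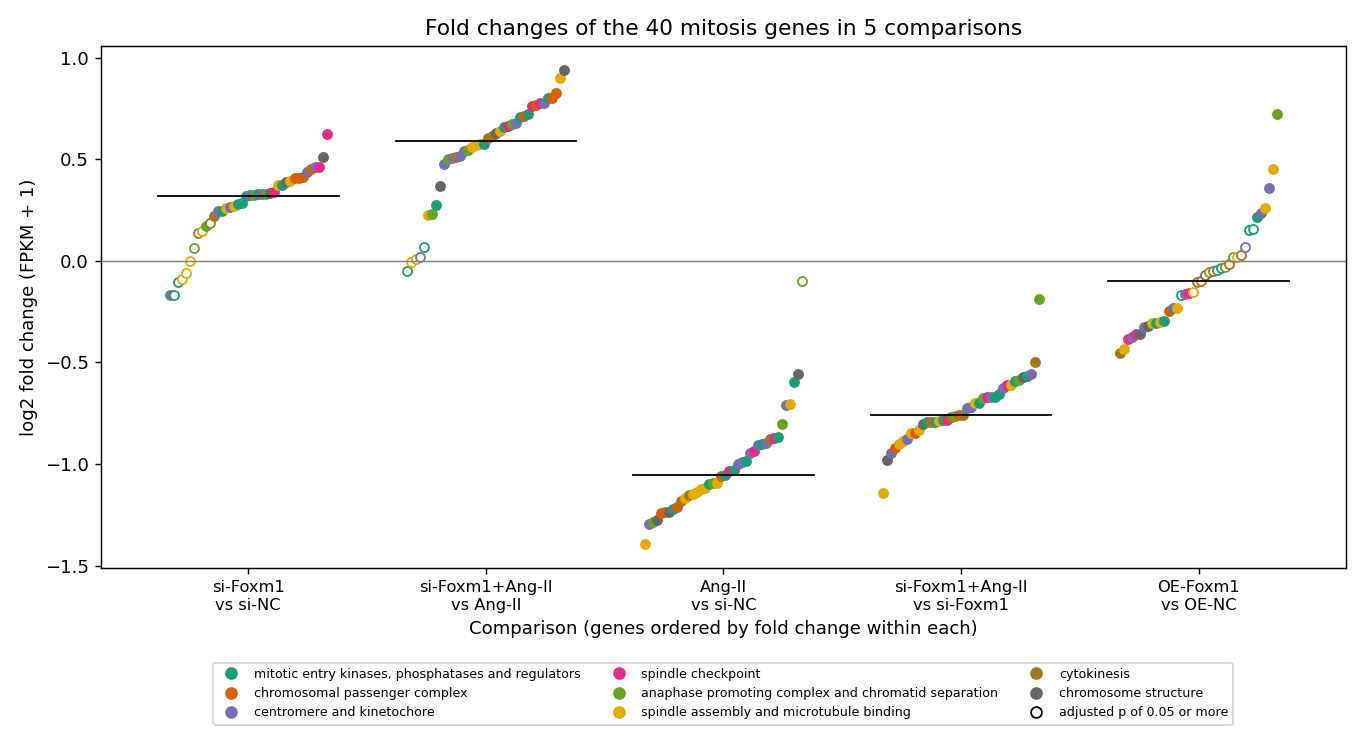
Log2 fold change of each of the 40 genes (points, coloured by role) in 5 comparisons, ordered within each; open points have a limma adjusted p of 0.05 or more, and black lines are the medians. The medians are 0.32 and 0.59 for the siRNA without and with Ang-II, -1.06 and -0.76 for Ang-II without and with the siRNA, and -0.10 for overexpression, where points lie on both sides of 0.

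The siRNA difference was more positive with Ang-II than without it for 37 of the 40 genes on this scale, among them Cdc25b, Nek2, Cenpf and Aspm, which were called higher in neither setting, but few differences passed the test of the interaction. By limma, 4 genes had a more positive siRNA difference under Ang-II and 0 a less positive one. Over all genes tested, 0.403% and 0.519% did. At an unadjusted p under 0.05 the counts for the 40 genes were 25 and 0. The shares of all genes tested at that unadjusted threshold, and with a more positive difference, were not computed. With voom they were 12 and 0, where 112 and 117 of the 11180 genes tested were called. The median difference was 0.30 for the 40 genes and -0.02 for all genes. The 4 genes were Ube2c (0.61 ± 0.11, limma adjusted p = 0.0216), Cdca8 (0.42 ± 0.07, 0.0137), the spindle pole kinase Aurka (0.40 ± 0.07, 0.0216) and Racgap1 (0.39 ± 0.07, 0.0195). Ube2c was 33.5, 34.1 and 38.8 FPKM in si-Foxm1, overlapping si-NC, but 21.0, 22.8 and 21.7 in si-Foxm1+Ang-II, well apart from Ang-II. Prc1 had the next largest difference (0.51 ± 0.13, limma adjusted p = 0.0841), and Pttg1 and Cdca2 the lowest (-0.09 ± 0.11 and -0.02 ± 0.10, the latter 0.03 with median-of-ratios scaling). The difference for Ube2c without hormone was 0.06, and -0.06 with that scaling. If Ang-II cells had no control siRNA, the interaction cannot be told apart from siRNA transfection.

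The count of interaction calls rested on single libraries. Without si-Foxm1+Ang-II 2 it was 0 by limma (25 at an unadjusted p under 0.05), without si-NC 1 or si-Foxm1 1 it was 1, without si-NC 3 or si-Foxm1 2 it was 2, and without Ang-II 3, the library that stood apart, it was 16. No member was called with a less positive siRNA difference under Ang-II in any of these. For the unadjusted count the share of all genes tested was not computed. Calls over all genes tested moved too, from 103 in the main fit to 37 without si-Foxm1+Ang-II 2 and 196 without Ang-II 3. They were 45 without si-NC 1, 40 without si-Foxm1 1, 59 without si-NC 3 and 64 without si-Foxm1 2.

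Overexpression of Foxm1 did not raise the set as a whole. In OE-Foxm1 against OE-NC, 6 of the 40 genes were higher and 17 lower by limma, where 27.1% of the 11259 genes tested in this arm were higher and 28.0% lower. The median log2 fold change was -0.10 for the 40 genes and -0.0012 for all genes. All 3 checkpoint genes and 2 of 3 chromosome structure genes were lower, and the spindle assembly genes (2 higher, 4 lower of 8) and the centromere and kinetochore genes (2 higher, 4 lower of 7) went both ways.

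Pttg1 rose most. It was 8.37, 8.11 and 7.87 FPKM in OE-NC and 13.0, 14.96 and 14.3 in OE-Foxm1 (0.72 ± 0.05, limma adjusted p = 2.05e-06). Ckap2 was 14.9, 13.9 and 16.3 FPKM and then 20.3, 20.9 and 21.5 (0.45 ± 0.05, limma adjusted p = 5.03e-05). Cenpa was 34.3, 32.8 and 34.6 FPKM and then 43.9, 42.2 and 45.1 (0.36 ± 0.04, limma adjusted p = 1.94e-05). All 3 separated without overlap, by ratios of 1.74, 1.39 and 1.29. The other genes that rose were Aspm (3.25, 3.66 and 3.76 FPKM, then 4.04, 4.36 and 5.02; 0.26 ± 0.07), Cenpf (4.57, 4.47 and 4.66, then 5.38, 5.31 and 6.01; 0.24 ± 0.05) and Cdc25c (0.21 ± 0.06, limma adjusted p = 0.011). Cdc25b and Nek2 had positive differences that did not pass the test (0.16 ± 0.06 and 0.15 ± 0.07, limma adjusted p = 0.0586 and 0.0984).

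The largest falls with overexpression, on the log2 scale and by the ratio of mean FPKM (0.722, 0.733 and 0.720), were in Anln, Prc1 and Ttk. Anln (anillin, a scaffold of the contractile ring) was 24.7, 24.2 and 25.4 FPKM in OE-NC and 17.3, 16.2 and 20.04 in OE-Foxm1 (-0.45 ± 0.06, limma adjusted p = 0.000164). Prc1 was 35.9, 34.8 and 37.3 FPKM and then 25.5, 25.1 and 28.5 (-0.44 ± 0.05, limma adjusted p = 3.68e-05). Ttk was 4.77, 5.14 and 4.89 FPKM and then 3.31, 3.41 and 3.94 (-0.38 ± 0.06, limma adjusted p = 0.000432). The groups did not overlap in any of the 3. Top2a fell from 38.8, 38.7 and 39.7 FPKM to 29.8, 30.3 and 33.4 (-0.32 ± 0.04). Bub1b, the gene that rose most with the siRNA, was 13.1, 12.1 and 13.6 FPKM and then 10.7, 11.6 and 12.2, which overlap (-0.16 ± 0.05, limma adjusted p = 0.0315, 0.00991 to 0.125 over the alternatives; lost without OE-NC 1, OE-NC 3, OE-Foxm1 1 or OE-Foxm1 2). Ube2c, at 63.0, 64.1 and 62.9 against 61.5, 59.7 and 71.5 FPKM, had a 95% interval of -0.11 to 0.14. Cardiomyocyte markers summed to 8175 to 8669 FPKM in OE-NC and 9143 to 9498 in OE-Foxm1, and macrophage and leukocyte markers to 199 to 219 and 277 to 314. Fibroblast markers summed to 3090 to 3288 and 3593 to 3643 FPKM, endothelial markers to 173 to 179 and 190.2 to 196, pericyte and smooth muscle markers to 185 to 193 and 183 to 193, and epicardial markers to 56.1 to 58.7 and 51.8 to 56.1. Their part was not tested.

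The responses to siRNA and overexpression, which share no library, can be set side by side gene by gene. Of the 30 genes that rose with the siRNA without hormone, 14 fell with overexpression and 3 rose (Cdc25c, Cenpa and Pttg1). Cenpf was lower with the siRNA and higher with overexpression. Of the 35 that rose under Ang-II, 17 fell with overexpression and the same 3 rose. Under Ang-II the siRNA calls for Cdc25c and Pttg1 were lost in 7 and 4 of 15 alternatives. Their limma adjusted p went up to 0.139 and 0.156, and the Pttg1 libraries overlapped. These counts were taken from the main fits and not redone with either scaling. Among all 11259 genes tested with overexpression, 28.0% fell and 27.1% rose. The shares among all genes that rose with the siRNA were not computed. Ckap2 and Aspm, which the main fits did not call with the siRNA in either setting, rose with overexpression. With the siRNA alone, Aspm was called lower with median-of-ratios scaling (-0.18, limma adjusted p = 0.0381) and quantile normalization (-0.18, limma adjusted p = 0.0248). Across the 40 genes, Pearson's r between the siRNA and overexpression effects was -0.44 (Spearman -0.50) without hormone and -0.70 (-0.65) with it, as a description over genes that share their libraries.

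**Figure D4:**
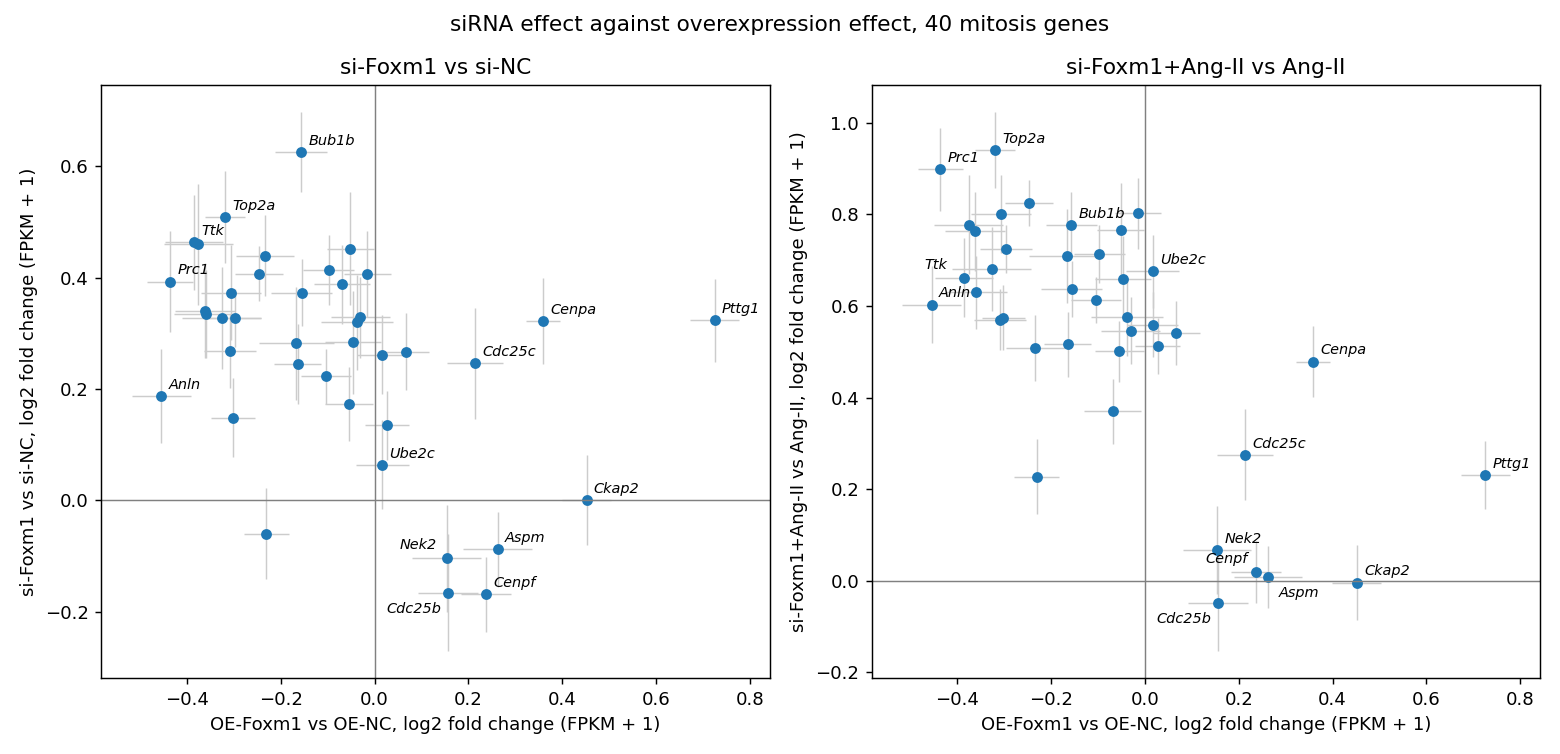
Log2 fold change with the Foxm1 siRNA (vertical; left without Ang-II, right with it) against that with Foxm1 overexpression (horizontal) for the 40 genes, with SE bars from the fits. Prc1 and Top2a lie at the upper left, Pttg1, Cenpa and Cdc25c at the upper right, and Ckap2, Aspm, Cenpf, Nek2 and Cdc25b near or below 0 on the right.

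The ratios between some related members differed between groups. The ratio of Ckap2 to its paralog Ckap2l, in FPKM, was 0.987 ± 0.030 in si-NC and 0.805 ± 0.024 in si-Foxm1, 0.946 ± 0.035 in Ang-II and 0.585 ± 0.063 in si-Foxm1+Ang-II, and 0.865 ± 0.074 in OE-NC and 1.51 ± 0.10 in OE-Foxm1 (SD, n = 3). In each of these pairs the groups did not overlap, and the ratio was lower with the siRNA and higher with overexpression. The ratio of Spc25 to Spc24, which form one end of the Ndc80 complex, was 1.69 ± 0.19 in OE-NC and 2.39 ± 0.18 in OE-Foxm1, as Spc24 fell with overexpression (-0.38 ± 0.07) and Spc25 did not pass the test (0.07 ± 0.05). With the siRNA that ratio was 1.64 ± 0.19 in si-NC and 1.39 ± 0.14 in si-Foxm1, which overlap, and 1.79 ± 0.28 in Ang-II and 1.36 ± 0.06 in si-Foxm1+Ang-II, which do not. The ratio of Nuf2 to Ndc80, the other end, stayed within its spread with overexpression, at 1.57 ± 0.25 and 1.46 ± 0.09. The ratio of Cenpf to Cenpa was 0.132 ± 0.001 in si-NC, 0.089 ± 0.004 in si-Foxm1, 0.083 ± 0.010 in Ang-II and 0.060 ± 0.004 in si-Foxm1+Ang-II. It was thus lower with Ang-II as well as with the siRNA, and in the overexpression arm it was 0.135 ± 0.002 in OE-NC and 0.127 ± 0.005 in OE-Foxm1, which overlap.

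The promoter strings occurred both in members that rose with the siRNA under Ang-II and in members that did not. Cenpf and Ckap2, which did not rise with the siRNA, hold TTTGAA or TTCGAA and CCAAT, as do Prc1 and Top2a. Pttg1 and Birc5 both lack all the strings in this window, and Birc5 fell with Ang-II while Pttg1 did not pass that test. Of the 5 members with TAAACA, Aspm and Cenpf rose with overexpression, Nuf2 fell, and Cdca3 and Ect2 did not pass the test.

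Other genes of the cell cycle gave counts in the same directions in the knockdown arm. Of 62 tested genes in a list of other mitosis genes, 44 were higher and 1 lower with the siRNA alone (48.5% and 17.2% of all genes tested), but 26 and 3 with median-of-ratios scaling and 28 and 3 with quantile normalization. With Ang-II alone 58 were lower (29.2% of all genes), and 53 were higher with the siRNA under Ang-II (44.0% of all genes; 45 and 46 with the scalings). Trip13, a checkpoint-disassembly ATPase, rose most on the log2 scale with the siRNA (0.66 ± 0.05), followed by the condensin subunit Ncapg (0.60 ± 0.08). The kinase Wee1, which restrains Cdk1, did not pass the test with Ang-II (0.0021 ± 0.060, limma adjusted p = 0.983). Of 39 DNA replication and S phase genes, 34 were higher with the siRNA alone (28 and 29 with the scalings), 39 lower with Ang-II alone, and 38 higher with the siRNA under Ang-II. With overexpression the replication list went mostly down, with 2 higher and 33 lower, a median of -0.32 against -0.10 for the 40 mitosis genes, while 10 of 67 other mitosis genes were higher and 29 lower. In that arm 27.1% of the 11259 genes tested were higher and 28.0% lower. The helicase subunit Mcm6 was among the largest falls (-0.64 ± 0.03), and the shugoshin Sgo2a (0.37 ± 0.05) and the kinetochore gene Dsn1 (0.39 ± 0.06) rose most among the other mitosis genes.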

How the data were processed

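The deposited table holds FPKM, calculated by the authors for each gene in each of the 18 libraries. Per the submitters' processing notes, fastp, HISAT2 and HTSeq were used with the mm39 genome; for versions, settings, annotation and gene lengths, none is given in these sources. Per the labels' protocols, the libraries were made with a stranded mRNA kit. Groups and replicate numbers came from the sample titles.

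Values were put on the scale log2(FPKM + 1) and tested with limma 3.58.1 (R 4.3.3, eBayes with trend), in 1 fit of the 12 libraries of the knockdown arm and another of the 6 libraries of the overexpression arm. Genes with a mean of at least 1 FPKM in a fit were tested, with the Benjamini-Hochberg adjustment over all of them; called genes had an adjusted p under 0.05. The interaction is the siRNA effect with Ang-II minus that without it. Tests were two-sided. Whole counts were recovered from the steps of the deposited FPKM, for all 17960 genes above 0, and gave the depth of each library and the counts for voom; counts cover sampling error only. The recovery and the calls were tested on simulated data. The simulation of the calls used a fixed spread between libraries, few changed genes and no shift of all genes. It cannot vouch for calls where many genes move or a library stands apart, as here.

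Alternatives tried were no filter or one at 0.1 FPKM, a pseudocount of 0.1, median-of-ratios scaling, quantile normalization, other sets of groups in the fit, a replicate block, voom on recovered counts, and each library left out in turn. Same-numbered libraries correlated weakly (r -0.04 to 0.18 over 21 pairs, 8 above 0.1), with a median r of 0.048 against -0.027 for other pairs. The main fits did not take the numbers to pair the samples, and the replicate block gives the calls with pairing. Members, roles, lists and tests were chosen with earlier results of these data known. Named members were Foxm1, the most abundant gene of each role, the 3 highest and 3 lowest of each comparison of 2 groups, for the interaction the 2 highest and 2 lowest, and members called against the majority; other named genes, such as Nek2, Dlgap5 and Aurka where outside that rule, and the ratios between partners were chosen after their values were seen. Promoters come from RefSeq on GRCm38.p6, another build than the authors', so none of the coordinates refers to the expression table.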

Additional observations from a re-analysis of the deposited data

Results flagged for a closer look

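The siRNA difference was not the same with and without Ang-II for 4 of the 40 genes, by the interaction test in limma. It cannot be told apart from siRNA transfection if Ang-II cells had no control siRNA, which the labels leave unstated. The difference in log2 fold change, with minus without the hormone, was 0.61 for Ube2c, 0.42 for Cdca8, 0.40 for Aurka and 0.39 for Racgap1. In each the siRNA difference was more positive under Ang-II than without it: 0.68 against 0.06 for Ube2c (-0.06 with median-of-ratios scaling), 0.82 against 0.41 for Cdca8, 0.72 against 0.33 for Aurka and 0.61 against 0.22 for Racgap1. Without si-Foxm1+Ang-II 2, none of the 4 passed the test (limma adjusted p 0.0504 to 0.0667), while 25 members had an unadjusted p under 0.05. Calls over all genes tested then went from 103 to 37. The share of all genes at the unadjusted threshold was not computed.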

How the results depend on the processing

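The 6 medians of the set and the Foxm1 differences kept their direction under the alternatives tried, and no named gene changed sign where it passed the test in either fit. Of 99 named gene values, 11 that passed no test changed sign in 35 alternatives in all. Among them are Ube2c with the siRNA alone (0.06, but -0.06 with median-of-ratios scaling and -0.0058 with quantile normalization), Ckap2 there (0.000025, and -0.12 and -0.11), Cenpf with the siRNA under Ang-II (0.02, and -0.03 and -0.05), Aspm there (0.0083, and -0.04 and -0.06) and the interaction for Cdca2 (-0.02, and 0.03 with median-of-ratios scaling). The others are Cdc25b, Nek2 and Ckap2 with the siRNA under Ang-II, the interaction for Pttg1, and Tpx2 and Ube2c with overexpression. Of the alternatives for named genes, 1436 kept their side of the threshold, 80 lost a call and 18 gained one. The median log2 fold change with the siRNA alone was 0.20 with median-of-ratios scaling and 0.21 with quantile normalization. The median with Ang-II alone was -1.25 with a pseudocount of 0.1 and -1.27 with voom. The median for Ang-II in siRNA-treated cells was -0.85 with a pseudocount of 0.1, -0.68 with median-of-ratios scaling, -0.67 with quantile normalization and -0.87 with voom. Interaction calls numbered 4, but 1 without a filter, 7 with all 6 groups in 1 fit, 12 with voom, and 0 to 16 with each library left out in turn. Over all genes tested they numbered 103, but 57 without a filter, 169 with all 6 groups, 229 with voom and 137 with the replicate block. With each library left out they ranged from 37 to 196. With the replicate block there were 7 interaction calls. In both directions together, calls numbered 33 for the siRNA alone, 39 for Ang-II alone and 35 for the siRNA under Ang-II. They numbered 39 for Ang-II in siRNA-treated cells and 26 for overexpression. Of all genes tested, 66.3%, 44.8%, 62.1%, 48.3% and 55.2% were called, in the same order. Of 18 libraries, 9 correlated best with their own number in every other group of the arm. With each library left out, calls ranged from 27 to 30, stayed at 39 (39 to 39), and ranged from 32 to 35, 39 to 40 and 21 to 28, in the same order of comparisons. Over all genes tested the called shares were then 59.7% to 62.2%, 37.5% to 44.3%, 54.9% to 59.4%, 41.6% to 43.6% and 48.9% to 51.8%. The cause of these shifts was not tested. With 3 libraries a group, members whose fold changes differ by less than their SEs cannot be ranked against each other.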

Other observations

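The controls of the arms differed in level. The 40 genes summed to 403 ± 16.8 FPKM in si-NC and 696 ± 11.9 in OE-NC (SD, n = 3), a ratio of 1.73, and Foxm1 was 10.1 ± 0.4 and 16.6 ± 0.8 FPKM. The arms have separate controls and were not tested against each other. OE-NC or OE-Foxm1 held the highest group mean for all 40 genes, and Ang-II held the lowest for 37, the exceptions being Pttg1 (lowest in OE-NC) and Cdc25b and Ckap2 (lowest in si-Foxm1+Ang-II). The shares of all genes with these highest and lowest groups were not computed.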
